A study of Homo sapiens with 9 samples.

Results

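Of the 96852 SF3B1 binding sites mapped in K562 cells, 1275 lay in long non-coding RNA (lncRNA) genes but in no protein-coding gene span. This count, which leaves out the lncRNA genes named below, was 1.32% of the list (95% Wilson interval 1.25% to 1.39%). A site was taken when its centre lay in no protein-coding gene span of RefSeq but in a span of biotype lncRNA, and when none of the lncRNA genes there was MALAT1, NEAT1, ZFAS1, GAS5, an SNHG gene, MIR17HG, CCDC26, PVT1, LINC01029 or LINC02476. Those genes held another 437 sites. The gene table gives outer spans without exons, so introns and exons were not distinguished.

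The study used iCLIP, in which ultraviolet light links a protein to the RNA it touches and sequencing marks the linked nucleotides. K562 is an established human leukaemia line with erythroid features, known as a chronic myeloid line although the labels call its origin lymphoid. SF3B1 was precipitated from 3 samples of K562 with genotype SF3B1 wt/wt and from 2 samples with SF3B1 K700E/wt, both lines from Horizon Discovery, and U2AF2 from 4 samples of SF3B1 wt/wt K562 from ATCC. All 9 samples received 400 mJ/cm2 of 254 nm light, and no sample was left without crosslinking. The 1 site list is attached by the labels to the 3 wt/wt SF3B1 samples, while its header speaks of sites found in all replicates of either condition. Genotypes and proteins were not compared, because the K700E/wt and U2AF2 libraries, 6 in number, were not analysed here. The list has no value per replicate, so read depth is unknown, no spread between samples can be given, and the intervals below cover counting of sites only.

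SF3B1 is the largest protein of the SF3b part of the U2 small nuclear ribonucleoprotein. This particle pairs with the branch point upstream of a 3′ splice site, and SF3B1 touches the RNA on both sides of it. Many lncRNAs are made by the same polymerase as messenger RNAs and are capped, spliced and polyadenylated, but they are often spliced less completely and kept in the nucleus. Some serve as primary transcripts from which microRNAs are cut out.

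Sequences around the sites could be read where a site fell in a RefSeq promoter window (GRCh38.p14, 250 bases before to 50 after a gene's start). This was so for 9 member sites in 7 windows, and these stretches are shown because they are the only member sites whose letters were at hand. Each is written 5′ to 3′ on the strand of its sites, with the 5 nt sites in capitals and up to 45 flanking bases. SPAG5-AS1 has no annotated strand, and its minus-strand site lay 6 nt from RSKR and 0.249 kb from BLTP2, both minus-strand genes.
PRANCR, chr12:70242858-70242989, minus strand: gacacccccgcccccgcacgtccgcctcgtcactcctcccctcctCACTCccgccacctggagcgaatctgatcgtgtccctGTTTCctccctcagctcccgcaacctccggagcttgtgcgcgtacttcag
MIR4435-2HG, chr2:111248297-111248391, minus strand: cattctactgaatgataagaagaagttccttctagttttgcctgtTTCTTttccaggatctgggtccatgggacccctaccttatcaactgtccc
SPICE1-CFAP44, chr3:113441668-113441743, minus strand: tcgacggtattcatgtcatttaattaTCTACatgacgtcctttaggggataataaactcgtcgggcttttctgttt
LOC124900777, chr4:126434907-126435001, minus strand: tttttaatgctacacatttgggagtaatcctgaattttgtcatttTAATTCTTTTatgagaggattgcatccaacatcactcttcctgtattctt
ANXA2R-AS1 and ANXA2R-OT1, chr5:43043360-43043454, plus strand: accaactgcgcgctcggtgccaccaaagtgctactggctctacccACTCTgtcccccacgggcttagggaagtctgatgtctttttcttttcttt
ADGRB3-DT, chr6:68634275-68634346, minus strand: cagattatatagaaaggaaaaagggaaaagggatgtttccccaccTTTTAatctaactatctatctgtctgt
SPAG5-AS1, chr17:28614144-28614238, minus strand: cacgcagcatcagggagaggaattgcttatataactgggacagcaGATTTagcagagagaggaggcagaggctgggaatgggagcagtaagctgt

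The crosslinked 5 nt were rich in thymine (uridine in the RNA). In the 9 member sites 26 of 45 bases were T, or 57.8% (95% Wilson interval 43.3% to 71.0%), and the share over the 384 sites of the whole list whose centre had 20 nt on both sides inside a promoter window was 58.1%. The bases of a site are not independent, so the interval is too narrow. Promoter windows as a whole hold 21.2% T over both strands. The 18 nt next to the 384 sites held more, 31.5% upstream and 29.3% downstream. For the 9 member sites these shares were 38.9% and 22.8%. The 2 sites of LOC124900777 abut, so each counts in the flank of the other. Uridine is known to crosslink readily, and this property of the method was not separated from the sequence bound. The PRANCR stretch holds a pair of sites, in which the downstream site GTTTC is followed by a run of pyrimidines ending in cag. The MIR4435-2HG site also lies in a pyrimidine run that ends in cag. The letters CAG or TAG occurred in the 18 nt downstream of 5 of the 9 member sites and in the 18 nt upstream of 2. Over the 384 sites they occurred downstream in 46.6% and upstream in 30.5%, against 42.6% of all 18 nt tiles of the promoter windows on both strands. These matches are a description of letters and do not mark splice sites.

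The member sites lay in 339 of the 18330 lncRNA genes of the table, which was 1.85%, whereas 7778 of 20056 protein-coding genes (38.8%) held a site. Sites on either strand were counted, and in lncRNA genes those that also lay in a protein-coding span were left out, which lowers the lncRNA counts. The 18330 also include the lncRNA genes left out by name, which count here as genes without a site. The median number of sites in these lncRNA genes was 2 (quartiles 1 and 4), against 7 (quartiles 3 and 15) in protein-coding genes. A single site was found in 137 lncRNA genes, 40.4% of those with any, and in 14.3% of the protein-coding genes with any. At least 10 sites were found in 35 lncRNA genes (10.3%, against 38.9% of protein-coding genes with a site). At least 20 were found in 12 (3.54%, against 18.9%). Of the member sites, 136 (10.7%) lay in more than 1 lncRNA gene and counted for each, so some of these genes share their sites. The lncRNA genes with a site spanned a median of 27.9 kb, against 9.04 kb for all lncRNA genes and 36.2 kb for protein-coding genes with a site. No transcript level was used here, so a gene without sites cannot be told from one whose RNA was too rare.

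Chromosome X carried 144 member sites, or 11.3% (95% Wilson interval 9.67% to 13.1%), against 3.04% of the whole list and 2.10% of lncRNA genes. GS1-600G8.3, MIR223HG and LINC01203 supplied 82 of them, and without these 3 genes the share was 5.20%. Chromosome 1, with 12.9% of the whole list, had 6.90% of the member sites. Chromosome 20 had the fewest of any chromosome with a member, 5 sites.

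The 20 lncRNA genes with the most sites held 417 member sites, 32.7% of them. In each of the 20 genes all sites lay on 1 strand. GS1-600G8.3 on chromosome X (13310652 to 13319933) led with 40 sites on the plus strand, all within 5.60 kb. ERVE-5, a gene named for an endogenous retrovirus, followed on chromosome 19 (28606688 to 28615229) with 37 plus-strand sites within 5.61 kb. LOC124904681 contains the ERVE-5 span, and its 37 sites were the same ones. All 37 also lay in LOC100420587, annotated as a transcribed pseudogene, so the gene they belong to is uncertain. LOC105376944 on chromosome 3 had 31 sites, but over 228 kb.

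**Figure D1:**
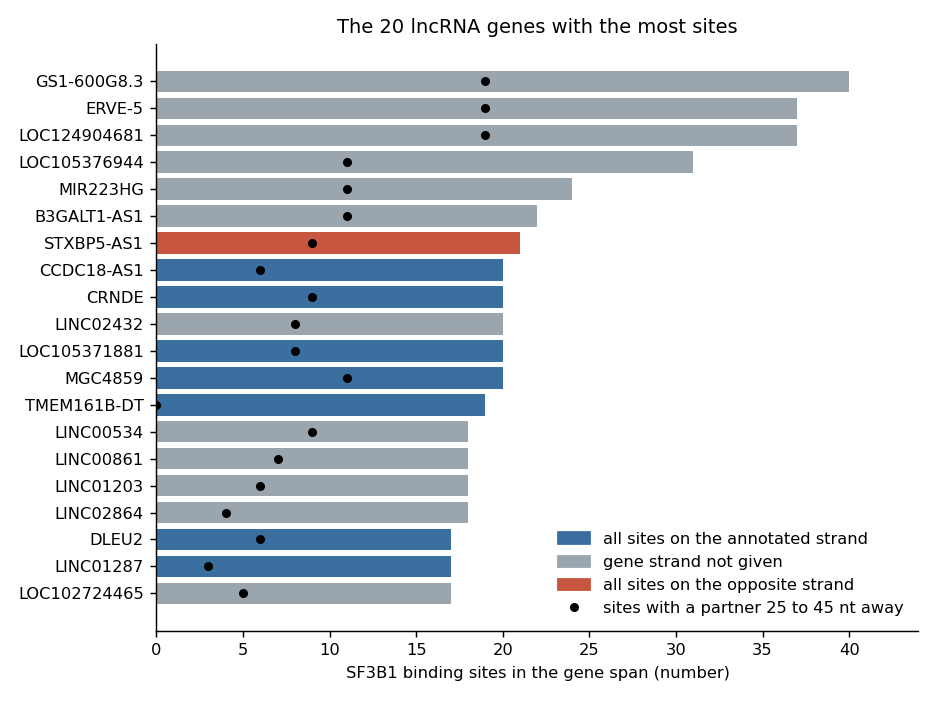
Number of SF3B1 binding sites (bars, x axis) in each of the 20 lncRNA genes with the most sites, coloured by how the sites lie to the annotated strand, with black points for the sites that have another site 25 to 45 nt away on the same strand. Counts ran from 17 to 40, STXBP5-AS1 is the gene whose sites all lie on the opposite strand, and TMEM161B-DT has 0 sites with such a partner.

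The leading genes fell into compact and widely spread patterns. MIR223HG, the host gene of the myeloid microRNA miR-223, had 24 sites in a span of 4.97 kb, or 4.83 sites per kb, the highest density among the 339 genes. ERVE-5 had 4.33 sites per kb, GS1-600G8.3 4.31, LINC01203 2.73 and CRNDE 2.00. CRNDE, a lncRNA known for high levels in colorectal tumours and some leukaemias, had 20 minus-strand sites on chromosome 16 between 54919221 and 54925077. LINC02432 with 20 sites and LINC01287 with 17 were also compact, at 1.74 and 1.38 sites per kb. At the other end, LOC102724465 had 17 sites in a span of 379.7 kb and MGC4859 20 sites in a span of 330.1 kb, which was 0.0448 and 0.0606 sites per kb. The median over all lncRNA genes with a site was 0.0841 per kb and over protein-coding genes with a site 0.198.

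**Figure D2:**
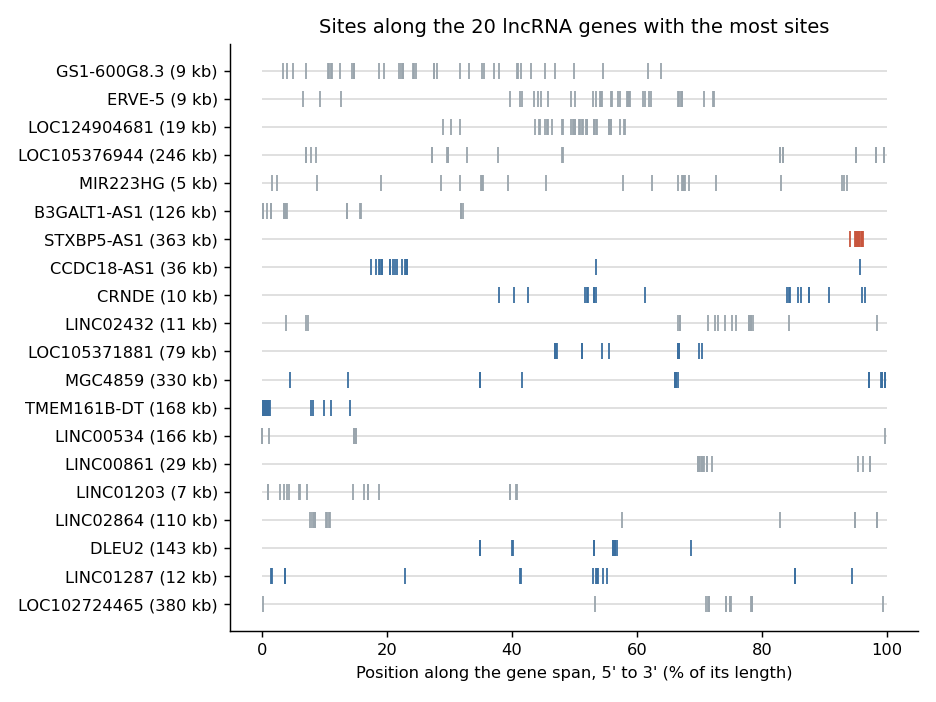
Each tick is 1 site, placed along the gene span from its 5′ to its 3′ end in percent of the span's length (x axis), for the 20 lncRNA genes with the most sites (rows, span in brackets); colours are as in the plot of site counts, and genes without an annotated strand are drawn in the direction of their sites. The sites of TMEM161B-DT crowd at the 5′ end, those of STXBP5-AS1 sit in 1 short stretch, and those of GS1-600G8.3 cover the first part of the span.

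Some of these runs of sites also took in sites that the rule left out, in neighbouring or overlapping protein-coding genes of the other strand. Between the first site in GS1-600G8.3 and the last in LINC01203 (positions 13310972 to 13337927 on chromosome X) 85 sites of the list fell on the plus strand, and the minus strand had 0. Of the 85, 58 were in the 2 lncRNA genes and 4 in the span of ATXN3L, a protein-coding gene annotated on the minus strand. LOC105371881 on chromosome 17 had 20 minus-strand sites, and the neighbouring KCNJ16, a potassium channel gene annotated on the plus strand, had 25 sites, all on the minus strand. B3GALT1-AS1 on chromosome 2 had 22 minus-strand sites. Its span overlaps that of the plus-strand gene B3GALT1, and 10 more minus-strand sites of B3GALT1-AS1 lay in the overlap. All 3 stretches had 0 sites on the other strand.

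The annotated strand was known for 223 of the 339 genes through the promoter table. Of the 724 member sites that could be judged, 680 (93.9%, 95% Wilson interval 91.9% to 95.4%) lay on the strand of a lncRNA gene there. In protein-coding genes 99.7% of sites did. A site was called opposite only when all lncRNA genes there had a given strand and none matched it. The 44 opposite sites fell in 11 genes, and 31 of them in 2 genes. They leave out, for example, the 14 plus-strand sites of GRM7-AS3, a gene annotated on the minus strand. Those sites also lie in LOC105376944, which has no given strand, so they were not judged. STXBP5-AS1 accounts for 21, all on the plus strand of chromosome 6 between 146855523 and 146862710, in a gene annotated on the minus strand. The nearest protein-coding gene, ADGB on the plus strand, is 40.1 kb from this stretch and had 0 sites. STXBP5, a plus-strand gene with 210 sites, is 342 kb from it on the other side. LINC03006 accounts for 10, and all 10 also lay in the transcribed pseudogene CCT6P1. In genes with at least 5 sites, 961 of 962 counts were on the majority strand of the gene, where a site in several genes counted for each. The exception was a plus-strand site in FTX that also lies in the plus-strand gene JPX.

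A converse group was lost to the rule. A further 136 sites lay on the strand of one of 43 lncRNA genes and inside protein-coding genes annotated only on the other strand. TTN-AS1, antisense to the giant muscle gene TTN, had 34 of them and no member site. EMC3-AS1 had 11, DLGAP1-AS2 9 and KANSL1L-AS1 7. The number of sites ascribed to lncRNA therefore depends on how overlaps are settled.

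Grouped by symbol into 9 classes, microRNA host genes had the largest share with a site, 13 of 87 (14.9%, 95% Wilson interval 8.95% to 23.9%). Overlapping transcripts, with the ending OT, had 2 of 22 (9.09%, 2.53% to 27.8%), and divergent transcripts, with the ending DT, had 36 of 592 (6.08%). Readthrough genes had 4 of 66 (6.06%), genes of no other class 30 of 709 (4.23%), LINC genes 86 of 2309 (3.72%), antisense genes with the ending AS 70 of 2047 (3.42%) and LOC genes 98 of 12412 (0.790%). The 86 genes with the ending IT, named for lying within introns of other genes, had 0, for which the upper Wilson bound is 4.28%, and any of their sites in a protein-coding span were left out by the rule. The same rule applied to the other classes, so their shares depend on it too. TTN-AS1, an antisense gene with 34 sites on its strand inside TTN, counts here as a gene without a site. The lncRNA genes left out by name also stayed in the class totals as genes without a site, MIR17HG among the microRNA hosts. The symbol classes were not matched on expression or length, and their differences were not tested.

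MicroRNA hosts gave the closest link to a known product. MIR223HG had 24 sites, MIRLET7A1HG 17, MIR570HG 10, MIR548XHG 8 and MIR4435-2HG 3, MIR210HG, MIR22HG and MIR503HG had 2 each, and the other 5 hosts had 1 each. DLEU2, the host of miR-15a and miR-16-1 in a region often deleted in chronic lymphocytic leukaemia, had 17. The mature forms from the genes described next are given with bases 2 to 8, the seed, in capitals, as RefSeq (GRCh38.p14) lists them, to show which products the sites flank.
miR-223-3p: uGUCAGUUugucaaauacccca
let-7a-5p: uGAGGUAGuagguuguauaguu
let-7f-5p: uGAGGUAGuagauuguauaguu
let-7d-5p: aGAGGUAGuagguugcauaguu
miR-210-3p: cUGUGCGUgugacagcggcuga
miR-15a-5p: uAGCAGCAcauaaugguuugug
miR-16-5p: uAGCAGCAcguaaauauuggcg
The let-7 forms share the seed GAGGUAG, and miR-15a-5p and miR-16-5p share AGCAGCA. The hairpins from which they are cut follow where sites came within 100 nt, with the mature arms in capitals.
MIR223, chrX:66018870-66018979, plus strand: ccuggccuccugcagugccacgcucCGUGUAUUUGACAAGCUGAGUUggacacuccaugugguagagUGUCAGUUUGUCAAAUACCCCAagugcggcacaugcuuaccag
MIRLET7A1, chr9:94175957-94176036, plus strand: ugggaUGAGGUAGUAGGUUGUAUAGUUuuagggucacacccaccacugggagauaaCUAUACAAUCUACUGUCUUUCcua
MIRLET7F1, chr9:94176347-94176433, plus strand: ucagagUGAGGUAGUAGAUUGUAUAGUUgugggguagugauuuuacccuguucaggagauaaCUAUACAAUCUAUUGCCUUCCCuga
MIR210, chr11:568089-568198, minus strand: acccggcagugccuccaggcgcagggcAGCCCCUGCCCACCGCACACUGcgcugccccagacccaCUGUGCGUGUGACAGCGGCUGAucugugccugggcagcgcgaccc

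Sites stood close to the 5′ side of these hairpins. Upstream of MIR223, sites lay 71, 63, 57, 52 and 20 nt before the first base of the hairpin, and 1 site lay 90 nt beyond its end. Upstream of MIRLET7A1 they lay 38 and 33 nt before it. MIRLET7F1 had sites 90, 64, 46 and 29 nt before it and 1 site 26 nt beyond it. MIR210 had sites 26 and 21 nt before it, the only sites of MIR210HG. None of these sites was inside a hairpin. The nearest DLEU2 sites were 369, 359 and 348 nt before MIR15A, and the nearest to MIRLET7D was 255 nt beyond it.

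**Figure D3:**
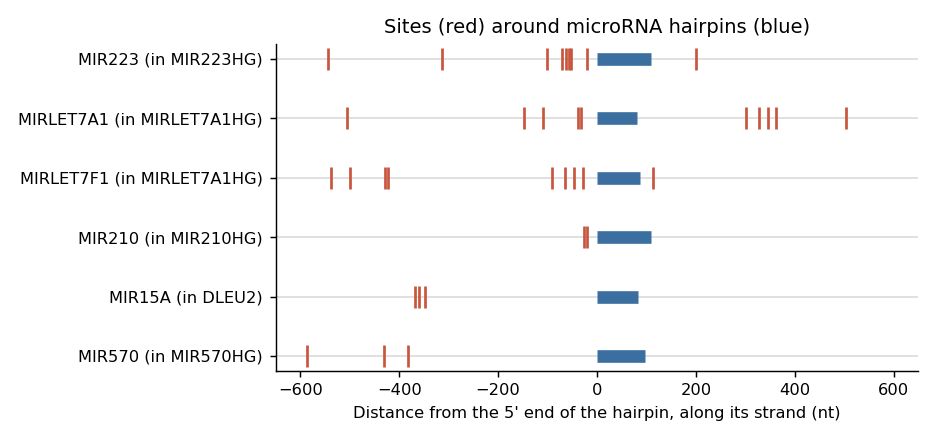
Member sites (red ticks) around 6 microRNA hairpins (blue bars) plotted by distance in nt from the 5′ end of the hairpin along its strand (x axis). Sites gather just before the hairpins of MIR223, MIRLET7A1, MIRLET7F1 and MIR210 and 0 sites lie inside one, while the nearest to MIR15A and MIR570 are 348 and 383 nt away.

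Over the 19 hairpins of the RefSeq table that lie in a lncRNA gene with a member site and not against its strand, 4 had a site within 100 nt (21.1%, 95% Wilson interval 8.51% to 43.3%). They had 13 sites upstream, 0 inside and 2 downstream. No hairpin of the hosts MIR22HG, MIR548XHG, MIR3171HG, MIR3667HG, MIR3936HG or MIR4458HG was among the 19, so not every host is covered. Among 473 hairpins chosen likewise, in a protein-coding gene with a site and not against its strand, 64 (13.5%, 10.7% to 16.9%) had a site within 100 nt, with 44 sites upstream, 53 inside and 29 downstream. The 4 hairpins lie in 3 genes, those of MIRLET7A1 and MIRLET7F1 share one transcript, and the difference in pattern was not tested.

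Sites were also counted in 2 lists of known lncRNAs. Of 20 well-studied regulatory lncRNAs in the table, 6 (30%) had a member site, against 1.85% of all lncRNA genes. These were CRNDE with 20 sites, FTX and LINC00667 with 10 each, FIRRE and JPX with 7 each and MIR4435-2HG with 3. FTX and JPX are neighbours in the X-inactivation centre, whose main RNA XIST was not on the list and had 14 sites, and FIRRE is an X-linked RNA that stays near chromatin in the nucleus. The other 14, among them H19, MEG3, HOTAIR, NORAD and KCNQ1OT1, had 0 member sites. One of the 14, EPB41L4A-AS1, held 2 sites that were left out because they lay inside a protein-coding span. Of 16 lncRNAs linked to blood or leukaemia, 6 (37.5%) had one: DLEU2 17, DLEU1 3, MIR22HG 2, and LUCAT1, LINC00173 and LINC00853 1 each. UCA1 had no member site, but its span held 7 sites inside a protein-coding span. Neither list was matched on expression or length. Both were chosen with earlier results of these data known, so their shares are descriptions and do not show enrichment.

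Spacing within lncRNA genes had the same main feature as in protein-coding genes. A partner, that is any site of the list 25 to 45 nt away on the same strand, was present for 452 of the 1275 member sites, or 35.5% (95% Wilson interval 32.9% to 38.1%), and for 36.5% of sites in protein-coding genes. Pairs 25 to 45 nt apart numbered 292 and those 46 to 66 nt apart, a window of the same width, numbered 96, a ratio of 3.04, against 3.58 in protein-coding genes. Within this range 35 to 39 nt was the fullest 5 nt class, with 89 pairs, and the PRANCR sites printed above, 37 nt apart, are one of them. Sites 5 to 9 nt apart, next to each other or nearly so, were more frequent still, with 187 pairs. When sites up to 60 nt from each other were joined, 796 clusters formed, of which 63.7% held 1 site, against 63.3% in protein-coding genes, and the largest held 6 sites. The broad rise at 140 to 180 nt over 60 to 100 nt was 136 against 105 pairs, a ratio of 1.30, where protein-coding genes had 1.72.

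**Figure D4:**
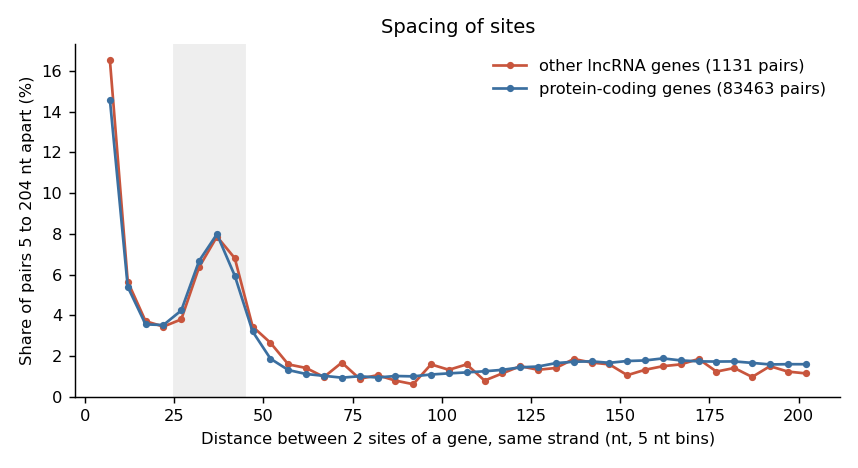
Share of site pairs (y axis, percent of all pairs drawn, each on one strand of a gene) by distance in 5 nt classes (x axis), for lncRNA genes (red) and protein-coding genes (blue), with 25 to 45 nt shaded. Both curves are highest at 5 to 9 nt, at 16.5% in lncRNA and 14.6% in protein-coding genes, and have a second peak at 35 to 39 nt, at 7.87% and 7.99%.

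Since genes with more sites have more chances of a pair, genes with like numbers of sites were set side by side. In lncRNA genes with 2 to 4 sites 30.5% of sites had a partner (95% Wilson interval 25.5% to 36.1%), against 22.5% in protein-coding genes. With 5 to 9 sites the shares were 46.6% (40.9% to 52.5%) and 32.4%. With 10 to 19 sites they were 36.0% (30.9% to 41.5%) and 36.5%, and with 20 to 40 sites 44.4% (38.6% to 50.3%) and 38.6%. Sites of a gene are not independent, so these intervals are too narrow and no test was made. Single genes differed widely: MGC4859 had a partner for 11 of its 20 sites and TMEM161B-DT for 0 of 19.

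In lncRNA genes the 5′ end of the span held more sites than the 3′ end, and in protein-coding genes fewer. Over 834 sites in 73 lncRNA genes with at least 5 sites, 160 sites (19.2%, 95% Wilson interval 16.7% to 22.0%) fell in the first 10% of the span and 87 (10.4%, 8.54% to 12.7%) in the last 10%. In protein-coding genes, from sites in exactly 1 such gene, the shares were 4.39% and 13.0%. With only lncRNA genes of annotated strand the last 10% held 6.45%. More sites in the first than in the last part were found in 27 lncRNA genes, fewer in 18 and equal numbers in 28. Among protein-coding genes the numbers were 724, 2189 and 1584. TMEM161B-DT had 16 sites in its first part, B3GALT1-AS1 12 and LINC00470 11. LOC105376944, LOC105377845 and MGC4859 had 9 each in their last part. Genes without an annotated strand were read in the direction of most of their sites, and each site was placed in 1 gene. Sites on the opposite strand of a gene were left out, the outer span can exceed the transcript made in K562, and the parts of a lncRNA gene that overlap a protein-coding gene were not counted. What these contribute was not tested.

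**Figure D5:**
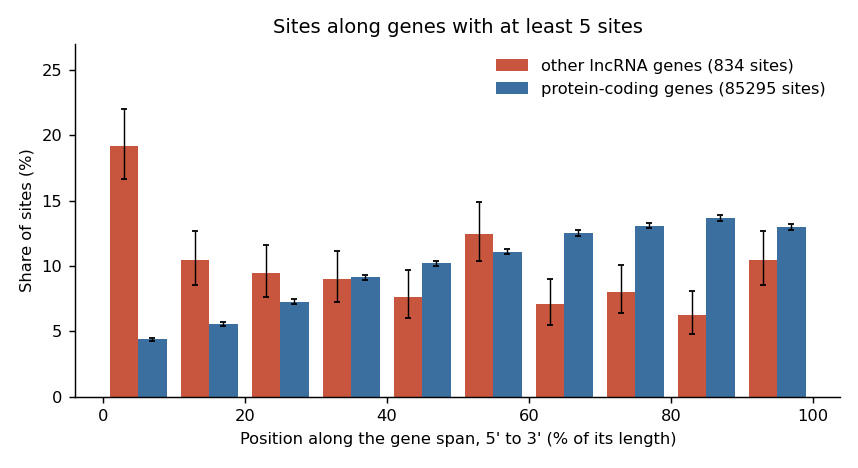
Share of sites (y axis, percent) in each 10% of the gene span from 5′ to 3′ (x axis) for lncRNA genes (red) and protein-coding genes (blue) with at least 5 sites; error bars are 95% Wilson intervals for counting of sites. The lncRNA genes are highest in the first 10%, at 19.2%, and the protein-coding genes rise from 4.39% there to 13.7% between 80% and 90% of the span.

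The member sites lay a median of 40.8 kb from the nearest protein-coding gene (quartiles 6.65 and 235 kb). Within 10 kb of one were 390 sites, 30.6% (95% Wilson interval 28.1% to 33.2%), and at least 100 kb away were 458, 35.9%. Of the 390 near sites, 177 lay beyond the 5′ end of the nearest gene and on its other strand, the arrangement of a divergent transcript. The nearest genes with the most such sites were DR1 with 18, TMEM161B with 14 and EOLA2 with 9. A further 113 were on the other strand beyond the 3′ end. On the same strand, 36 lay beyond the 3′ end and 8 before the 5′ end. NABP1, a single-strand DNA binding protein gene, had 12 of those 36, all in LOC124900605, which starts on its strand just downstream. For 56 sites the strand of the nearest gene was not given.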

How the data were processed

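One BED list of merged 5 nt binding sites was analysed. Per the file headers, the authors kept sites reproducible by all replicates of either condition. Its deposited score column was 0 in every row and was not used. The submitters' processing notes name FastQC 0.11.8, STAR 2.7.3a and 2.6.1b, UMI-tools 1.0.0, bedtools 2.27.1, GRCh38.p10 and GRCh38.p12, without roles. The site caller is not given in the sources used here. Because sites had to recur in all replicates, weakly covered RNA may be under-represented, and merging to 5 nt sets the smallest distance between sites.

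Positions were made 1-based and the centre was used. Spans and biotypes came from a RefSeq table of GRCh38.p14, and strands from its promoter table. A site in several lncRNA genes counted for each. Planned results on exons and 3′ splice sites were not made, because no annotation of exons was used here. The members, lists and tests were chosen with earlier results of these data known. Named genes were the 20 with the most sites (ties by symbol) and the members of 2 gene lists and of symbol classes. Other genes were named after their values were seen. The pair count recovered 153 of 153 pairs planted in simulated sites. Gene assignment equalled a direct search for 500 of 500 sites. Python 3.11.15, NumPy 2.4.6, pandas 2.3.3 and Matplotlib 3.10.9 were used.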

Additional observations from a re-analysis of the deposited data

How the results depend on the processing

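Of 69 recalculations, 59 stayed within 1.5 times of a count or within the 95% interval of a share, and 10 moved. Among the 59 were all 40 of the site counts in the 20 named genes, where close sites were only merged or thinned. The 10 that moved are given next. Counting only sites on the annotated strand of the lncRNA gene lowered the members to 680, since genes without a given strand drop out. Ignoring protein-coding genes of the other strand, an alternative chosen after seeing the data, gave 816, again without genes of no given strand. A minimum of 2 sites left 202 genes. The share of sites with a partner was 32.7% with 1 site per region number, the list's running number that close neighbours can share, and 25.02% at 31 to 41 nt. Linking at 40 nt gave 69.0% single-site clusters. The share within 5 kb of a protein-coding gene was 19.9% and within 1 kb 4.86%. Without the 3 leading genes on X, the X share was 5.20%. With only genes of annotated strand, the last 10% of the span held 6.45% of sites, and the first 10%, which stayed within its interval, held 21.1%. This and the X alternative were also chosen after seeing the data. With merged or single sites, 19 of the 20 leading genes remained in that group. Alternatives on exons and 3′ splice sites were not run. Leaving out single replicates was not possible with a merged list. No paired analysis was possible because replicate values were not analysed here, only merged sites.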
